A study of Mus musculus with 8 samples.

Results

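The 8 protein kinase C genes Prkca, Prkcb, Prkcd, Prkce, Prkch, Prkcq, Prkci and Prkcz were followed through 8 RNA libraries of sorted cells from the mouse central amygdala. They were taken by name, not by a cut on their values, from the 20692 genes of the deposited tables. Earlier results of these data were known when they were chosen. PkcdRed libraries (n = 4) came from male mice that carry PKC delta-type::Cre, a line in which the gene of protein kinase C delta drives Cre recombinase. SstRed libraries (n = 4) came from male SST::Cre mice, in which the somatostatin gene drives Cre. All mice of both populations also carried Rosa::loxP-STOP-loxP-td-Tomato, a reporter that stays on in any cell in which Cre was once active. PkcdRed replicates 1 and 2 were 9 weeks old and replicates 3 and 4 were 18 weeks old, whereas SstRed replicates 1 and 2 were 8 weeks old and replicates 3 and 4 were 20 weeks old. Age classes are called older (18 to 20 weeks) and younger (8 to 9 weeks). Each library held about 1000 td-Tomato-positive cells punched from both sides of the brain of 1 mouse, dissociated with papain and sorted by flow cytometry.

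Protein kinase C enzymes phosphorylate serine and threonine, and the family is divided by what switches the enzymes on. Conventional isoforms (alpha and beta, encoded by Prkca and Prkcb) need calcium and diacylglycerol, the lipid that phospholipase C releases below Gq-coupled receptors. Calcium-independent isoforms (delta, epsilon, eta and theta, encoded by Prkcd, Prkce, Prkch and Prkcq) need diacylglycerol but not calcium, and atypical isoforms (iota and zeta, encoded by Prkci and Prkcz) respond to neither. In the central amygdala, protein kinase C delta is known as the marker of a class of GABAergic neurons that is largely separate from the somatostatin neurons. Outside neurons, delta and beta are also known from myeloid cells such as microglia.

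The libraries held much RNA of cells other than neurons, which bears on every level given here. Totals were 964361 to 2522749 estimated counts in the 18 to 20 week libraries and 10316149 to 18242496 in the 8 to 9 week libraries, so age class ran together with depth. The deposited files of the older and the younger libraries also carry different run identifiers in their names. Levels are given as TPM, the transcript share scaled to transcript length. A list of 10 neuronal markers summed to 229.5 to 1462 TPM in PkcdRed and 304.9 to 943.8 TPM in SstRed libraries. The GABAergic list (5 of 6 genes measured) summed to 55.9 to 199.4 TPM in PkcdRed and 30.1 to 232.7 TPM in SstRed libraries. Against this, 12 microglial markers summed to 31680 to 54720 TPM in PkcdRed and 497.8 to 6446 TPM in SstRed libraries, and 12 of 12 lay higher in all 4 PkcdRed than in all 4 SstRed libraries. The list for somatostatin neurons (7 genes) summed to 12.2 to 447 TPM in PkcdRed and 433.3 to 1041 TPM in SstRed libraries. That for delta neurons (6 genes, Prkcd among them) summed to 225.9 to 1374 TPM in PkcdRed and 198.2 to 418.5 TPM in SstRed libraries. Of those 6 genes, 1 lay higher in all 4 PkcdRed than in all 4 SstRed libraries, Prkcd itself. The highest of these sums, in PkcdRed replicate 2, held 1183 TPM of Penk. PkcdRed replicate 2 also held 222.7 TPM of Sst, close to the 116.3 to 296.2 TPM of the SstRed libraries, while the other 3 PkcdRed libraries held 0.209 to 13.7 TPM. In such bulk libraries fewer cells of a type and less RNA per cell cannot be told apart.

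Of the 8 kinases, Prkcd alone lay higher in all 4 PkcdRed than in all 4 SstRed libraries, and none lay lower in all 4. Among all 11328 genes tested, 3.88% lay wholly above and 3.05% wholly below. The other 7 kinases overlapped. For Prkch and Prkcb, 3 of the 4 SstRed libraries lay below every PkcdRed library, with SstRed replicate 4 the exception for Prkch and SstRed replicate 2 for Prkcb. These exceptions were picked after the values were seen, and how many of all genes show such an order was not counted. All 8 passed the expression filter. In edgeR's quasi-likelihood test over all genes, with age class as a term, 0 of the 8 passed an adjusted p of 0.05, where 0.282% of all tested genes did, 0.282% as higher and 0% as lower in PkcdRed. At an unadjusted p of 0.05, Prkcd and Prkch passed (2 of 8), against 6.67% of all tested genes. DESeq2 called the same pair (2 of 8, against 4.01% of its tested genes), and edgeR without a filter called 2 of 8 (against 1.6%). Limma on log2(TPM + 1) called Prkcd (1 of 8, against 1.3%).

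**Figure D1:**
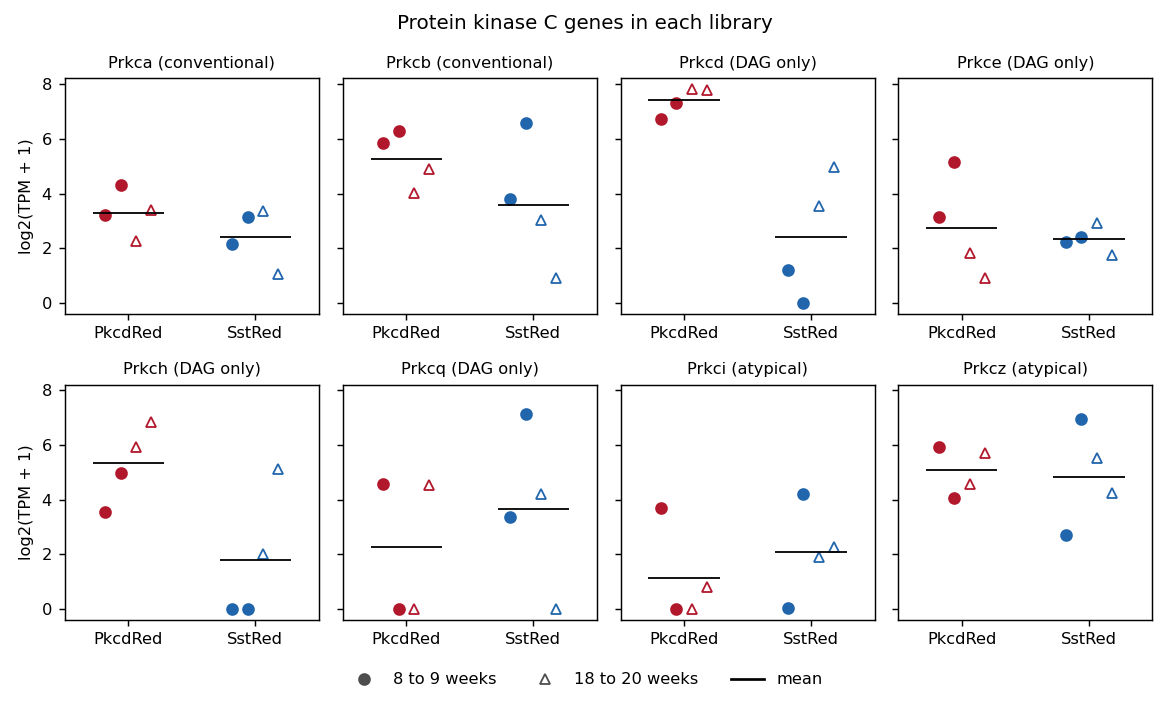
Level of each protein kinase C gene as log2(TPM + 1) in the 4 PkcdRed libraries (red, left) and the 4 SstRed libraries (blue, right). Panel titles give the class (DAG only: needs diacylglycerol but not calcium), filled circles are 8 to 9 week mice, open triangles are 18 to 20 week mice and bars are means of the plotted values. Prkcd is the panel in which the populations are fully apart.

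**Figure D2:**
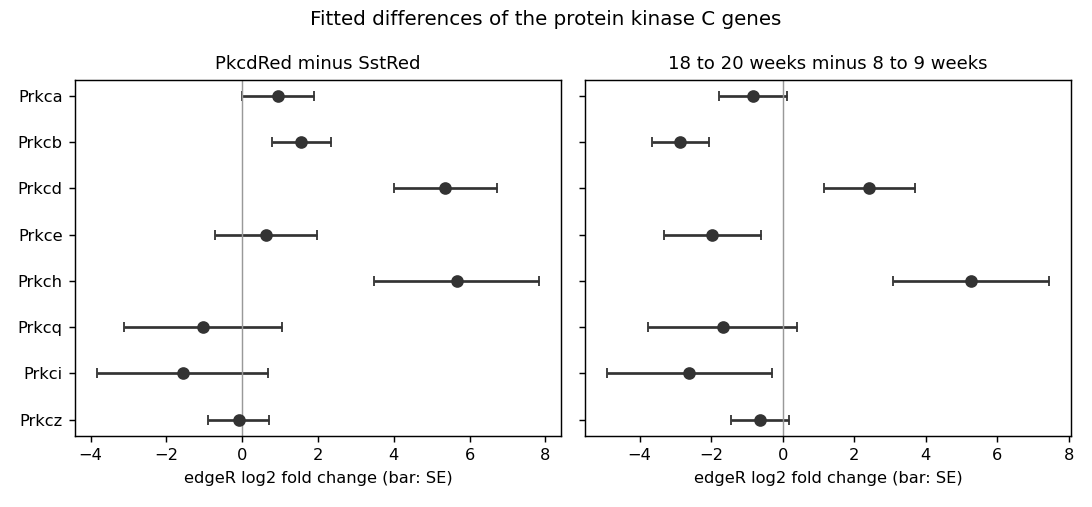
Fitted edgeR log2 fold changes with their SE for the 8 genes, PkcdRed minus SstRed (left panel) and 18 to 20 weeks minus 8 to 9 weeks (right panel). Prkcd and Prkch have the highest values in both panels, and no gene passed an adjusted p of 0.05 in either.

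Among the calcium-independent isoforms, Prkcd (chromosome 14, 30595353 to 30626414, GRCm38) was the most abundant kinase of each PkcdRed library. It had 106.5, 157.5, 225.7 and 221.3 TPM in PkcdRed replicates 1 to 4, against 1.31, 0, 10.7 and 30.2 TPM in SstRed replicates 1 to 4. The populations did not overlap, and the highest SstRed value was that of replicate 4. The driver of the PkcdRed sort is the gene itself, so this separation is not independent of the sort. Whether the reads came from cells in which the driver was on was not tested. Its log2 fold change of 5.36 ± 1.36 (SE) had an adjusted p of 0.219 in edgeR, 7.12e-05 in DESeq2 and 0.0101 in limma on log2(TPM + 1). Over 20 fits it was positive each time, from 3.44 to 7.31, and without PkcdRed replicate 2 it was 5.04 (adjusted p 0.325 in edgeR). The distance between the populations was larger in the 8 to 9 week libraries. There, 6303 pooled reads in PkcdRed stood against 38 in SstRed libraries, a ratio of pooled read rates of 176. At 18 to 20 weeks it was 856 against 150 reads, a ratio of 9.24. Single SstRed libraries decided both ratios, since all 38 younger reads came from replicate 1, with 0 in replicate 2, and 124 of the 150 older reads from replicate 4. The test of that difference (interaction) gave a log2 value of -3.88 ± 1.93 (SE) (adjusted p 0.9997, unadjusted p 0.0714 in edgeR), and ran from -10.29 without SstRed replicate 1 to -2.77 without SstRed replicate 4.

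Prkcd was set beside the microglial sum because delta is known from myeloid cells. Per 1000 TPM of microglial markers, PkcdRed libraries held 2.71 to 6.57 TPM of Prkcd and SstRed libraries held 0 to 60.6 TPM, so the populations overlapped on this scale. Per 1000 TPM of neuronal markers, PkcdRed libraries held 107.7 to 964.2 TPM and SstRed libraries 0 to 74.5 TPM, so all 4 PkcdRed libraries stayed above. Per 1000 TPM of GABAergic markers, PkcdRed libraries held 634.7 to 4040 TPM and SstRed libraries 0 to 1002 TPM, which overlapped. SstRed replicate 4 had the most Prkcd and the lowest microglial sum (497.8 TPM), and SstRed replicate 1 had 1.31 TPM of Prkcd beside the highest sum (6446 TPM). The order of Prkcd in SstRed replicates 1 to 4 was that of their endothelial marker sums (308.6, 20.4, 2089 and 9534 TPM). That list was picked from 13 with the values known, so the match is not independent of the choice. In PkcdRed replicates 1 to 4, with endothelial sums of 548.7, 4668, 2730 and 10700 TPM, the orders differed. Which cells gave the Prkcd reads was not tested.

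The promoter of Prkcd is shown because that gene names the sort. The window lies at chr14:30626179-30626458 (GRCm38.p6, minus strand), with 250 bases before and 30 after a RefSeq start that is 2 bases from that of the measured transcript, and with GC boxes (GGGCGG on either strand) in capitals.
Prkcd: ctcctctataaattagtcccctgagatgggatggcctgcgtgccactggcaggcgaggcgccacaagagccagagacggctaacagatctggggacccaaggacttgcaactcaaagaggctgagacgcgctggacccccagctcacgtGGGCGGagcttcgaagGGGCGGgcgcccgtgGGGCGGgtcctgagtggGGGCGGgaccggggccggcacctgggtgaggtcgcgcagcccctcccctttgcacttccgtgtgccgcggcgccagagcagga
The window shown holds 4 GC boxes. Another RefSeq window of Prkcd, with its start 15900 bases from that of the measured transcript, holds 0 GC boxes and is not shown. At least 1 GC box is found in 34.7% of 32851 RefSeq promoter windows of the same 280 bases, and the letters alone do not show a site that is used.

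Prkch (chromosome 12, 73584796 to 73778185) encodes protein kinase C eta, an isoform best known from epithelia. It had 10.8, 30.5, 60.8 and 113.5 TPM in PkcdRed replicates 1 to 4, against 0, 0, 3.07 and 33.6 TPM in SstRed replicates 1 to 4. SstRed replicate 4 was the only SstRed library within the PkcdRed range. Within each age class, both PkcdRed libraries lay above both SstRed libraries, as they also did for Prkcd. How many of all genes show this order was not counted. At 8 to 9 weeks, 1104 pooled reads in PkcdRed stood against 0 in SstRed libraries. Against the 3 counts that a pooled count of 0 allows, the read rate was at least 390.5-fold higher in PkcdRed, with counting error only. At 18 to 20 weeks it was 430 against 175 reads, a ratio of 3.98.

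The fitted difference of Prkch, 5.65 ± 2.18 on the log2 scale (SE), had an adjusted p of 0.581 in edgeR and 0.00103 in DESeq2. It was 2.57 with no age term, 3.72 without either of SstRed replicates 1 and 2, and 8.30, 8.46 and 7.62 without PkcdRed replicates 3 and 4 and SstRed replicate 4. Markers of endothelial cells, the lining of vessels, were set beside Prkch. This list was picked from 13 because its level moved with Prkch, so a match between them is not independent of the choice. The 10 endothelial genes summed to 548.7, 4668, 2730 and 10700 TPM in PkcdRed replicates 1 to 4, against 308.6, 20.4, 2089 and 9534 TPM in SstRed replicates 1 to 4. The libraries with the highest Prkch in each population, PkcdRed replicate 4 and SstRed replicate 4, were also those with the highest endothelial sums. PkcdRed replicate 3, however, had more Prkch than PkcdRed replicate 2 (60.8 against 30.5 TPM) at a lower endothelial sum. The part of endothelial cells in the result was not tested. Markers of lymphocytes, cells in which eta and theta are also known, were summed as well. The sum of these markers was 0.925 to 12.8 TPM in PkcdRed and 0.0815 to 5.21 TPM in SstRed libraries over 9 measured genes, with Cd3g, Cd2 and Klrb1c at 0 in all 8 libraries. The part of lymphocytes in the levels of Prkch and Prkcq was not tested.

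Prkcq (chromosome 2, 11171905 to 11301226) encodes protein kinase C theta, the isoform of T cell receptor signalling. It had 22.7, 0, 0 and 22.2 TPM in PkcdRed replicates 1 to 4, against 9.22, 138.5, 17.7 and 0 TPM in SstRed replicates 1 to 4. It was listed at 0 in 2 PkcdRed libraries and 1 SstRed library, and SstRed replicate 2 held more than all others together. The log2 fold change was -1.03 ± 2.08 (SE; adjusted p 0.970 in edgeR), and without SstRed replicate 2 it was 0.29. Oligodendrocyte precursor markers summed to 758.4, 36.9, 96.2 and 72.6 TPM in PkcdRed replicates 1 to 4, against 254.1, 2685, 572.1 and 102.2 TPM in SstRed replicates 1 to 4. The library with most Prkcq thus had the highest precursor sum of all 8. The precursor list was also picked because its level moved with the kinase, so this match is not independent of the choice. PkcdRed replicate 4 held 22.2 TPM of Prkcq at a sum of 72.6 TPM. Markers of mature oligodendrocytes were also highest in SstRed replicate 2 (60660 TPM), with 29720 TPM in PkcdRed replicate 4. PkcdRed replicate 3 had 23020 TPM of them at 0 TPM of Prkcq. Whether precursor cells or oligodendrocytes gave these reads was not tested.

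**Figure D3:**
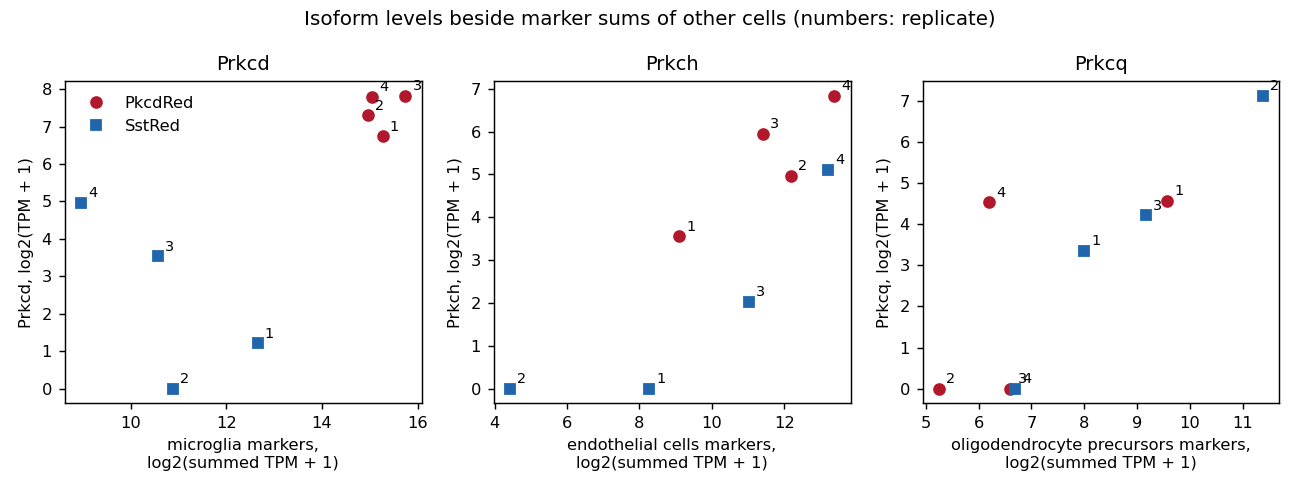
Levels of Prkcd, Prkch and Prkcq as log2(TPM + 1) against the summed TPM of microglial, endothelial and oligodendrocyte precursor markers on the same log2 scale. Each point is a library (red circles PkcdRed, blue squares SstRed) with its replicate number. The highest Prkcq value, 138.5 TPM in SstRed replicate 2, stands at the highest precursor sum. That library also had the highest oligodendrocyte sum, which is not plotted. The endothelial and precursor lists were picked because their levels moved with the kinase shown.

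Prkce (chromosome 17, 86167785 to 86657919) encodes protein kinase C epsilon, a neuronal isoform known from studies of pain and alcohol responses. It had 7.75, 34.3, 2.58 and 0.907 TPM in PkcdRed replicates 1 to 4, against 3.67, 4.29, 6.66 and 2.39 TPM in SstRed replicates 1 to 4. The PkcdRed libraries spread on both sides of all 4 SstRed libraries. The log2 fold change was 0.63 ± 1.36 (SE; adjusted p 0.972 in edgeR). It was positive at 8 to 9 weeks (2.37) and negative at 18 to 20 weeks (-1.27), and the interaction, -3.69 ± 2.21 (SE), did not pass (unadjusted p 0.125 in edgeR). It was also negative without PkcdRed replicate 2 (-0.28), the library with most Prkce.

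The conventional isoforms were found in every library. Prkcb (chromosome 7, 122289104 to 122634402) encodes protein kinase C beta, which is abundant in forebrain neurons and also made by myeloid cells. It had 57.5, 78.1, 15.3 and 28.9 TPM in PkcdRed replicates 1 to 4, against 13.1, 94.9, 7.11 and 0.878 TPM in SstRed replicates 1 to 4. Without SstRed replicate 2, the highest of all 8, the 3 remaining SstRed libraries lay below all 4 PkcdRed libraries. That library was set aside here after its value was seen. The log2 fold change was 1.56 ± 0.78 (SE; adjusted p 0.789 in edgeR) and 2.40 without SstRed replicate 2 (adjusted p 0.370). Prkca (chromosome 11, 107933387 to 108343888) encodes protein kinase C alpha, a widely expressed isoform. It had 8.32, 18.8, 3.81 and 9.55 TPM in PkcdRed replicates 1 to 4, against 3.43, 7.79, 9.32 and 1.08 TPM in SstRed replicates 1 to 4. With a log2 fold change of 0.94 ± 0.95 (SE; adjusted p 0.927 in edgeR), the populations overlapped and the difference did not pass. Per 1000 TPM of GABAergic markers, PkcdRed libraries held 274 to 391.8 TPM of Prkcb and SstRed libraries 29.1 to 407.7 TPM.

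Of the atypical isoforms, Prkcz had reads in all libraries, whereas Prkci was listed at 0 in 2 of them. Prkci (chromosome 3, 30995742 to 31052740) encodes protein kinase C iota, a partner of the Par3 and Par6 polarity proteins. It had 11.8, 0, 0 and 0.771 TPM in PkcdRed replicates 1 to 4, against 0.0208, 17.6, 2.73 and 3.82 TPM in SstRed replicates 1 to 4. The populations overlapped, and its counts ran from 0 to 606 reads in PkcdRed and from 1 to 688 reads in SstRed libraries. The log2 fold change was -1.57 ± 2.26 (SE; adjusted p 0.955 in edgeR). Prkcz (chromosome 4, 155260118 to 155361428) encodes protein kinase C zeta and, from an internal start, the brain form PKMzeta, a kinase domain without the inhibitory part that has been studied in long-term potentiation and memory. It had 60.3, 15.8, 23.0 and 51.6 TPM in PkcdRed replicates 1 to 4, against 5.50, 122.9, 44.9 and 17.8 TPM in SstRed replicates 1 to 4. The highest and the lowest of the 8 libraries were both SstRed libraries. The log2 fold change, -0.09 ± 0.81 (SE; adjusted p 0.992 in edgeR), was positive in 8 of 20 fits and 1.12 without SstRed replicate 2. Prkcz per 1000 TPM of GABAergic markers averaged 370.9 ± 228 TPM in PkcdRed and 384.6 ± 224.4 TPM in SstRed libraries (SD, n = 4 each).

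Prkcz was the only one of the 8 genes with more than 1 measured transcript. The short transcript (NM_001039079, PKMzeta, 4111 bases in the deposited files, 409 residues by the GENCODE coding sequence) starts 15589 bases inside the gene from the start of the long one (NM_008860, 4311 bases in the deposited files, 592 residues). The short transcript took 100% of Prkcz TPM in all 4 PkcdRed libraries and in SstRed replicates 1, 3 and 4, and 98.6% in SstRed replicate 2. There the long transcript had 66.2 estimated counts beside 4346.8 of the short one. In the other 7 libraries the long transcript was listed at 0 counts. In the GENCODE sequences, whose model of the long transcript (2641 bases) is shorter than the one measured, 473 bases of the long and 323 bases of the short transcript precede their first shared run of 31 bases. Reads of the shared part cannot tell the transcripts apart, and an estimate made from such reads alone goes to the transcript of fewer bases, which in the deposited files is the short one. A count of 0 therefore shows that no read was assigned to the long transcript's own bases, and the share of full-length mRNA is uncertain.

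The 2 starts are shown because the measured transcripts differ by them. Both are on the minus strand of chromosome 4 (GRCm38.p6), at chr4:155361399-155361678 for the long and chr4:155345760-155346039 for the short transcript, each with 250 bases before and 30 after the RefSeq start. These RefSeq starts lie 67 bases (long) and 17 bases (short) from those of the measured transcripts. Capitals mark GC boxes (GGGCGG, either strand) and the cAMP response element (TGACGTCA, its own reverse complement).
Long start: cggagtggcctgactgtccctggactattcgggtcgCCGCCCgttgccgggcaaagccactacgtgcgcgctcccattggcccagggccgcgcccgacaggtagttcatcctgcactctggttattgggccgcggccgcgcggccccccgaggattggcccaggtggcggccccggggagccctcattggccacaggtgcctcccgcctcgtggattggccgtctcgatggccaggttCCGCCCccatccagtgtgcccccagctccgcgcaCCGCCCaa
Short start: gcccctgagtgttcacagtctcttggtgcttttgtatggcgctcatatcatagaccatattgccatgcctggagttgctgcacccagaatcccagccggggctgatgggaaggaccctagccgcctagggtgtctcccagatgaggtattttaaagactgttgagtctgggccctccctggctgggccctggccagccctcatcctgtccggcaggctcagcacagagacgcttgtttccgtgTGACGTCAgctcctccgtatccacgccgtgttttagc
The long start has 3 GC boxes, 0 cAMP response elements and 71.1% G and C. The short start has 1 cAMP response element that spans the RefSeq start, 0 GC boxes and 57.9% G and C. The element is found in 1.74% of all 32851 windows. Another RefSeq window of Prkcz, with its start 1023 bases from that of the short transcript, holds 2 GC boxes and 0 cAMP response elements and is not shown. All of these are letter matches only.

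The make-up of the family differed between the populations as shares of its summed TPM. Prkcd was the leading isoform in 4 of 4 PkcdRed libraries, with 50.4 ± 12.9% of the sum (SD, n = 4), against 11.9 ± 15.1% in SstRed libraries (SD, n = 4). In SstRed libraries 4 different genes led: Prkcb in replicate 1 (36.2%), Prkcq in replicate 2 (35.9%), Prkcz in replicate 3 (44.0%) and Prkch in replicate 4 (37.4%). The second place in PkcdRed libraries went to Prkcz in replicate 1, Prkcb in replicate 2 and Prkch in replicates 3 and 4. Prkcz held 11.1 ± 7.26% in PkcdRed and 27.7 ± 12.9% in SstRed libraries, and Prkcq held 3.23 ± 3.92% in PkcdRed and 19.6 ± 15.1% in SstRed libraries (SD, n = 4 each). Shares of a sum depend on each other, and the share of Prkcd lowers all others in PkcdRed libraries. The sum itself was 285.7 to 448.6 TPM in PkcdRed libraries, against 36.3, 385.9, 102.1 and 89.7 TPM in SstRed replicates 1 to 4.

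**Figure D4:**
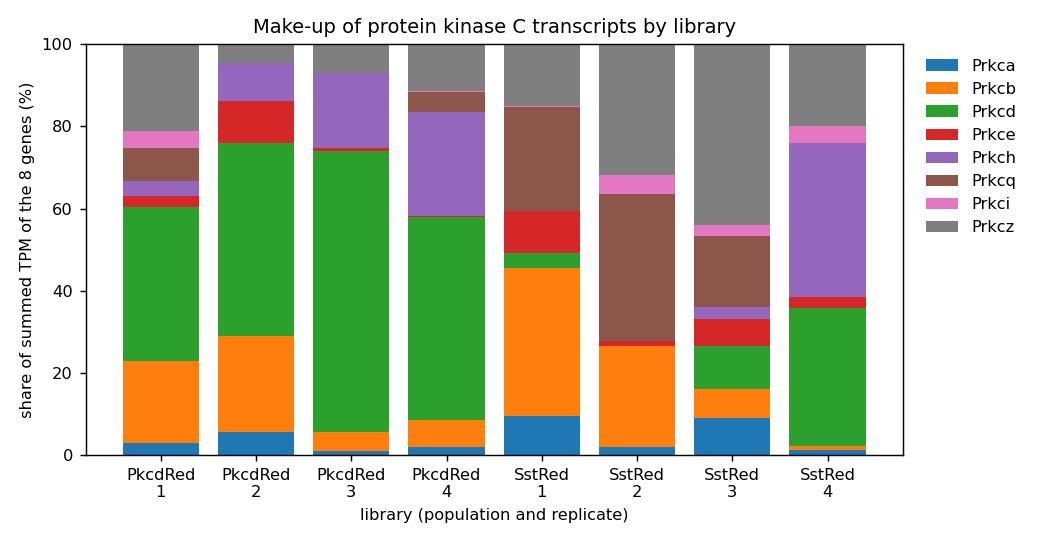
Share (%) of each gene in the summed TPM of the 8 protein kinase C genes, for each PkcdRed library (left) and each SstRed library (right). Prkcd (green) takes 37.3 to 68.1% of PkcdRed and 0 to 33.7% of SstRed libraries.

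In order of mean level, PkcdRed libraries ran from Prkcd (177.7 ± 56.8 TPM) through Prkch (53.9 ± 44.7), Prkcb (44.9 ± 28.2), Prkcz (37.6 ± 21.6), Prkce (11.4 ± 15.6), Prkcq (11.2 ± 12.97) and Prkca (10.1 ± 6.28) to Prkci (3.15 ± 5.81 TPM; SD, n = 4 each). Prkcd lay above Prkch in all 4 libraries, and each later neighbour pair changed places in at least 1 library. SstRed libraries ran from Prkcz (47.8 ± 52.7 TPM) through Prkcq (41.3 ± 65.2), Prkcb (29.0 ± 44.2), Prkcd (10.5 ± 13.9), Prkch (9.16 ± 16.3), Prkci (6.04 ± 7.86) and Prkca (5.402 ± 3.814) to Prkce (4.25 ± 1.79 TPM; SD, n = 4 each). Each neighbour pair there stood in the given order in 2 of 4 libraries, so the SstRed order is not larger than the spread between mice.

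The kinases were also compared between age classes, which cannot be told apart from depth or from the run identifier, for the interaction as well. Prkcb had 28.9, 15.3, 7.11 and 0.878 TPM in the 18 to 20 week libraries, against 94.9, 78.1, 57.5 and 13.1 TPM in the 8 to 9 week libraries. The classes overlapped through SstRed replicate 1, with 13.1 TPM. Within each population both older libraries lay below both younger ones, an order that was not counted over all genes. The log2 fold change of Prkcb was -2.86 ± 0.80 (SE; adjusted p 0.308 in edgeR, 0.0169 in DESeq2). Prkch had 113.5, 60.8, 33.6 and 3.07 TPM in the 18 to 20 week libraries, against 30.5, 10.8, 0 and 0 TPM in the 8 to 9 week libraries. Its log2 fold change was 5.26 ± 2.18 (SE; adjusted p 0.539 in edgeR, 0.00244 in DESeq2). Endothelial markers summed to 2089 to 10700 TPM in the older and 20.4 to 4668 TPM in the younger libraries, and their part in this was not tested.

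At the threshold, 0 of the 8 kinases passed for age in edgeR (0.053% of all tested genes did, 0.0265% as higher and 0.0265% as lower at 18 to 20 weeks). Prkcb and Prkch had an unadjusted p under 0.05 (2 of 8, against 8.35% of all tested genes). DESeq2 called that pair (2 of 8, against 5.32%), as did edgeR without a filter (2 of 8, against 1.48%), and limma on log2(TPM + 1) called 0 of 8 (against 0.468%). No kinase had all 4 older libraries above or below all 4 younger ones, as 4.15% and 3.53% of tested genes did. Prkcd had a log2 fold change of 2.42 ± 1.27 (SE), and the other 5 kinases had values from -2.61 to -0.63, with adjusted p-values in edgeR of 0.645 to 0.871. For the interaction of population and age class, edgeR called 0 of the 8 kinases, as of all genes (0%). Of the 8, Prkch had an unadjusted p under 0.05 (1 of 8, against 4.12%), with a log2 value of -9.31 ± 2.33 (SE). DESeq2 called Prkch (adjusted p 0.0175, 1 of 8, against 0.671%), and edgeR without a filter called 0 of 8 (against 0.149%). That value rests on the 2 young SstRed libraries at 0 reads and is no measure of size.

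For each kinase the 3 genes with the most similar pattern over the 8 libraries were named by the mean absolute difference between centred log2(TPM + 1) profiles, among genes with a mean of at least 10 TPM. The libraries share population, age class and depth, so a like pattern is a description. Nearest to Prkcd were Slco2b1, an organic anion transporter (mean difference 0.654), Golm1, a Golgi membrane protein (0.707), and Cmtm6, a membrane protein that stabilises PD-L1 (0.771), against a median of 2.69 over 7980 genes. Golm1, with 322.2 ± 210.3 TPM in PkcdRed and 8.09 ± 7.66 TPM in SstRed libraries (SD, n = 4 each), passed the population test (adjusted p 0.0344 in edgeR). Nearest to Prkch were Traf5 (0.43), Ceacam1 (0.641) and Tek (0.689), the angiopoietin receptor of endothelial cells and a member of the endothelial list, with a median of 2.35. Nearest to Prkcq were Insc, Tsacc and Tmem125 (0.416 to 0.581, median 2.27). The nearest genes of Prkcb were Rnf220, Cyrib and Csnk1g2 (0.440 to 0.466, median 1.80). Those of Prkca were Gmppa, Ilvbl and Ammecr1l (0.270 to 0.317, median 1.26), and those of Prkce were Rpl30, Larp1 and Rufy3 (0.326 to 0.374, median 1.43). Prkci was nearest to Fam126a, Chst2 and Rabggta (0.435 to 0.493, median 1.57), and Prkcz to Aars, Rab31 and Cd82 (0.35 to 0.407, median 1.36). Of these named neighbours, Golm1 was the one that passed the population test in edgeR.

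Genes that act around protein kinase C were read as 6 lists, and no member of any list passed edgeR in the population, age or interaction comparison. The median log2 fold change of all tested genes was -0.08, and values below are log2 fold changes, PkcdRed minus SstRed, from that fit. Of all tested genes, 6.67% had an unadjusted p under 0.05 in edgeR, the share to set beside each list count below. Of the upstream Gq and G11 proteins and phospholipases C, 11 of 16 could be tested, 2 had an unadjusted p under 0.05 and the median was 0.31. Gna15, a G protein of blood cells, had 154.3 ± 67.7 TPM in PkcdRed and 5.53 ± 10.3 TPM in SstRed libraries (SD, n = 4 each; 5.30 ± 1.92 SE, adjusted p 0.508 in edgeR). Gna11 and Plcd4 had 0.31 and -1.13. Of the diacylglycerol kinases and lipases, which remove or make use of the lipid, 8 of 12 could be tested, 2 had an unadjusted p under 0.05 and the median was 0.62. Daglb, which turns diacylglycerol into an endocannabinoid, had 113.2 ± 97.3 TPM in PkcdRed and 19.5 ± 11.5 TPM in SstRed libraries (SD, n = 4 each; 2.56 ± 0.72 SE, adjusted p 0.292 in edgeR). Dgkz and Dgkd had 1.69 and 1.65.

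Other receptors of diacylglycerol had a median of -0.72 over 8 of 9 genes tested, of which 2 had an unadjusted p under 0.05 in edgeR. For this and the next lists the share of all tested genes was again 6.67%. The 2 receptors were Rasgrp2 and Rasgrp3, in opposite directions. Rasgrp2, named outside the rule for naming after its value was seen, had -2.73 ± 0.94 (SE; adjusted p 0.466 in edgeR). The most abundant members of this list were the chimaerins Chn1 (-0.50) and Chn2 (-0.93) and the Ras activator Rasgrp3 (1.503). Scaffolds and partners had a median of 0.39 over 11 of 12 genes tested, and 1 had an unadjusted p under 0.05. This was Fez1, a partner of protein kinase C zeta in axon growth, at 398.8 ± 174.3 TPM in PkcdRed and 1021 ± 494.1 TPM in SstRed libraries (SD, n = 4 each; -1.25 ± 0.47 SE, adjusted p 0.567 in edgeR). Ywhaz and Sdcbp had -0.26 and -0.14. Of 12 substrates 10 could be tested, 9 had positive values and 2 an unadjusted p under 0.05, with a median of 0.58. The share of positive values over all tested genes was not counted. The substrates Nrgn, Gap43 and Marcks, which bind calmodulin or membranes until they are phosphorylated, had 1.07, 0.04 and 0.94. Also outside the rule for naming, the 2 substrates with an unadjusted p under 0.05, Ncf1 and Plek, were chosen after their values were seen. Both are known from myeloid cells, and they had 4.80 ± 1.09 and 3.81 ± 0.90 (SE; adjusted p 0.154 and 0.169 in edgeR), beside the microglial sums given above. Of 8 related kinases 7 could be tested, with a median of 1.10, and 1 had an unadjusted p under 0.05. Prkd3, a protein kinase D that diacylglycerol also binds, had -0.25.

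**Figure D5:**
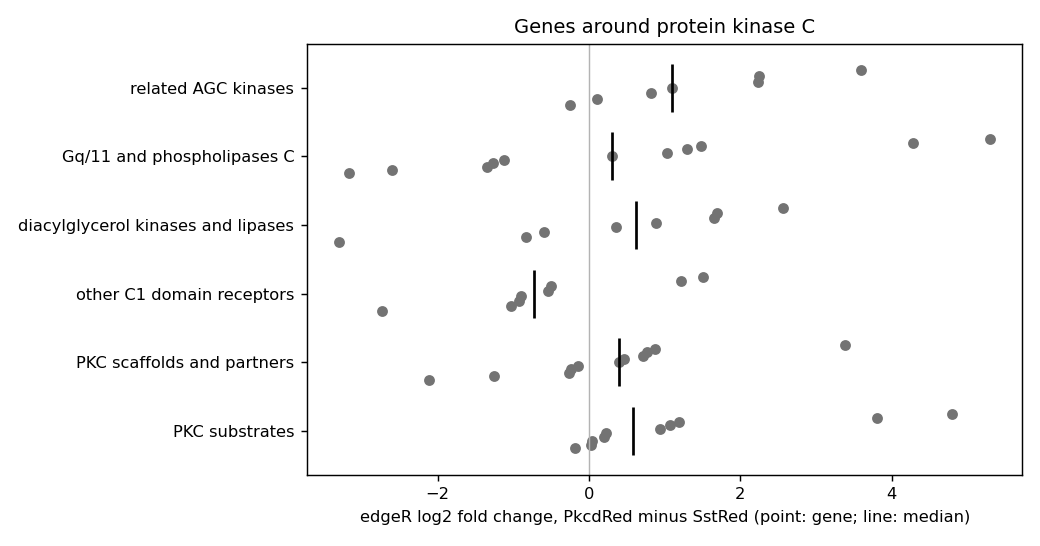
Fitted edgeR log2 fold change, PkcdRed minus SstRed, of each tested gene (points) in 6 lists of genes around protein kinase C, with the list median (line). Medians run from -0.72 for other C1 domain receptors to 1.10 for related kinases, and no gene passed an adjusted p of 0.05.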

How the data were processed

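Each deposited file lists estimated counts and TPM of RefSeq transcripts, as computed by the authors and named per the file headers. Kallisto 0.43.0, BWA 0.7.12 and the build mm10 appear in the submitters' processing notes, as listed here without their roles. TPM in the deposited files sums to 1000000 per library and keeps no depth. Of 30404 targets, 30080 were named from RefSeq (GRCm38.p6), 147 from GENCODE and 177 kept their accession, which gave 20692 genes. Both values were summed per gene and counts rounded. A count of 0 allows 3 counts, 0.164 CPM in the deepest and 3.11 CPM in the shallowest library; such floors cover counting error only. Of 35 pairs of transcripts of different members, 1 (Prkca and Prkcb) shared runs of 31 bases, 8 in number.

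Genes were tested with edgeR 4.0.16 (R 4.3.3; quasi-likelihood, TMM scaling, filterByExpr on populations) in a model of population plus age class, with p-values adjusted by Benjamini-Hochberg over 11328 genes. Alternatives were DESeq2 1.42.0, limma 3.58.1 on log2 TPM, other scalings and filters, a replicate block, fits within an age class or without the age term, and leaving out each library. SE of edgeR values came from the F statistic. With 1 mouse per library, p-values cover the spread between mice together with sorting and amplification. In simulated counts for PkcdRed against SstRed (200 changed genes, 10661 after the filter) edgeR recovered 1.89%, 42.4% and 69.8% of genes changed 4-fold, 16-fold and 64-fold with 1 false call, and DESeq2 13.2%, 71.2% and 93.7% with 103 false calls. The members and lists were chosen with earlier results of these data known. All members are named, with the 3 nearest patterns of each, and, as no list member passed, the 3 tested genes per list with the highest mean TPM, except that some genes of the related kinases are not reported here. Summed marker levels and shares were described without a test. The endothelial and precursor lists were set beside kinases whose levels moved with them. The marker sums cover 13 lists. Those not named in the text are given in the closing section.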

Additional observations from a re-analysis of the deposited data

Results flagged for a closer look

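In 4 of the 16 sets of 4 libraries examined (8 genes in 2 populations), 1 library stood apart from the other 3. This was judged by Dixon's test on TPM, the gap to the nearest value over the range of the set. Its rate of about 1 set in 20 by chance assumes independent, normally distributed values. These sets mix age classes, share libraries and in part hold values of 0. Whether 4 of 16 is more than chance gives was therefore not tested. Prkcb had 94.87 TPM in SstRed replicate 2, against 0.878 to 13.1 TPM in the other SstRed libraries. Prkcq had 138.5 TPM in the same library, against 0 to 17.7 TPM in the others. Prkch had 33.56 TPM in SstRed replicate 4, against 0 to 3.07 TPM in the others. Prkci had 11.85 TPM in PkcdRed replicate 1, against 0 to 0.771 TPM in the others.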

How the results depend on the processing

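Genes called between populations numbered 32 in the reported edgeR fit, 269 with no filter, 454 with DESeq2, 147 and 68 with limma on log2(TPM + 1) and log2(TPM + 0.1), 24 with the replicate block, 0 within 8 to 9 weeks, 0 within 18 to 20 weeks, and 10 to 52 when each library was left out. Between age classes the 6 calls became 2 with RLE scaling, 249 with no filter, 2 with the filter of 10 CPM in 4 samples, 568 with DESeq2, 53 and 12 with limma (pseudocounts 1 and 0.1), and 0 to 2 without each library. For the interaction the 0 calls became 25 with no filter and 76 with DESeq2. Prkcd passed with no filter (5.36), DESeq2 (5.43) and limma with pseudocount 1 (4.99), and Prkch with no filter (5.67) and DESeq2 (6.37). For age, Prkcb passed with no filter (-2.88) and DESeq2 (-2.79), and Prkch with no filter (5.27) and DESeq2 (6.08). For the interaction Prkch passed with DESeq2 (-9.50). Prkce turned negative within 18 to 20 weeks (-1.27) and ran from -0.28 to 1.37 without each library, negative without PkcdRed replicate 2 and without SstRed replicates 1 and 2. Prkcq turned positive within 18 to 20 weeks (0.45) and ran from -3.29 to 0.29. Prkcz turned positive with limma (0.23 and 0.26), with the replicate block (0.31) and within 18 to 20 weeks (0.33), and ran from -0.46 to 1.12. For age, Prkcz turned positive with limma (0.10 and 0.14) and ran from -0.995 to 0.59, and Prkci ran from -3.35 to 0.092. Interactions without each library ran from -10.29 to -2.77 for Prkcd, from -10.52 to 7.15 for Prkci, from -7.54 to 13.26 for Prkcq, from -2.16 to 2.01 for Prkcz and from -1.70 to 1.20 for Prkca. Shares from estimated counts, which weight by transcript length, gave PkcdRed means of 5.76% for Prkca, 27.5% for Prkcb and 35.0% for Prkcd. The cause of each other change was not tested. Prkci gave no value with the 10 CPM filter.

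Replicate numbers are shared by the populations, but deviations of same-numbered libraries from their population means correlated at 0.0764, 0.124, 0.0615 and 0.174, so the numbers were not taken as pairs. With the block, Prkcd had 5.60 ± 1.47 (SE; adjusted p 0.289 in edgeR) and Prkch 6.28 (adjusted p 0.4495 in edgeR). The 18 to 20 week libraries limit low isoforms most: 1 read there is worth up to 1.04 CPM.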

Other observations

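Markers of further cell types, and of the oligodendrocytes set beside Prkcq, also varied between libraries. Oligodendrocyte markers summed to 11710 to 29720 TPM in PkcdRed and 11550 to 60660 TPM in SstRed libraries, and astrocyte markers to 397.4 to 3944 TPM in PkcdRed and 3073 to 6873 TPM in SstRed libraries. Mural cell markers summed to 101.7 to 3731 TPM in PkcdRed and 2145 to 10540 TPM in SstRed libraries. Erythrocyte markers summed to 0.748 to 8471 TPM in PkcdRed and 0.494 to 489.9 TPM in SstRed libraries, and excitatory neuron markers to 0 to 43.1 TPM in PkcdRed and 0.209 to 3.37 TPM in SstRed libraries. Each of these ranges overlapped between the populations.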
